A study of Mus musculus and Homo sapiens with 34 samples.

Results

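The response of HT29 spheroids to SIS ECM was set against the mean response of the mouse lines CT26 and MC38, gene by gene. The genes were those whose symbols match between the human and the mouse count table when case is ignored and that occur once in each table, 16667 genes of 114320 entries in both tables (58870 human, 55450 mouse). For each gene the quantity is the log2 fold change with SIS ECM over cells alone in HT29, minus the mean of the same log2 fold change in CT26 and MC38, and it is called the difference here. A positive difference means that the response was higher in HT29 than in the mouse lines, whether HT29 rose or the mouse lines fell. Changes within the lines are therefore given beside most of the differences.

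Polyadenylated RNA was sequenced from HT29 spheroids grown with SIS ECM (6 libraries) and from HT29 cells alone (6), from CT26 with SIS ECM (6) and cells alone (6), and from MC38 with SIS ECM (5) and cells alone (5). SIS ECM is decellularised matrix of small intestinal submucosa, and the spheroids grown with it are named MatriSpheres. All 3 are established lines labelled colorectal carcinoma, HT29 human and both others mouse, with no genetic change or drug in any group. All groups had the same serum-containing medium in low-attachment U-bottom plates and were collected on day 7, with 10 spheroids in a tube. HT29 is the only human line and libraries were pooled for sequencing within species, so species, line and sequencing pool cannot be told apart. Separate cultures or passages are not named for the libraries of a group, so each p-value rests on library-to-library spread that may be technical in origin.

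Library totals were 25.5 to 37.0 M counts in human and 15.8 to 24.2 M counts in mouse (M, mega), and at least 84.0% of each library's counts fell in the genes tested. The epithelial markers EPCAM, CDH1, KRT8, KRT18, KRT19, VIL1 and CDX2 summed to 8130–9900 CPM (counts scaled to library size) in HT29 with SIS ECM and 8770–10100 CPM in HT29 cells alone. In CT26 the sum was 11.9–23.5 CPM with SIS ECM and 6.61–11 CPM in cells alone, nearly all of it KRT18, and EPCAM and CDH1 were at 0. In MC38 it was 0.228–1.25 and 0.551–0.910 CPM, with EPCAM and KRT19 at 0. Mesenchymal markers summed to 0.938–1.84 CPM in HT29 and 3290–6310 CPM in the mouse lines, led there by VIM. By these markers the epithelial part of the label was borne out in HT29 and not in CT26 or MC38. CT26 did express some other epithelial and gut genes. KRT20 had a mean of 53.7 CPM there with SIS ECM and 46.3 CPM in cells alone, and CEACAM1 22 and 21.1 CPM. Of 36 gut differentiation genes, 30 passed the count filter described below in HT29, 12 in CT26 and 7 in MC38. Smooth muscle markers stayed under 1 CPM in all libraries and the endothelial sum reached 1.64–4.92 CPM in MC38, nearly all PECAM1. The leukocyte gene PTPRC was near 0. Mouse libraries also differed by their number, with mitochondrially encoded transcripts at 3.42–5.01% of counts in libraries 1 to 3 and 5.71–8.59% in libraries 4 to 6. Values within each range are therefore given beside several of the largest differences.

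Cells read their matrix through integrins and other receptors, and the TGF-beta pathway and the YAP and TAZ coactivators, which act through TEAD factors, turn that contact into expression of genes for matrix, crosslinking enzymes and protease inhibitors. Plasminogen activators and matrix metalloproteinases cut matrix outside the cell, held in check by inhibitors. Interferon-stimulated genes form the antiviral response of most nucleated cells, and many carry a short element in their promoters that interferon-activated factors bind.

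To be tested, a gene had to pass a count filter in each of the 3 lines, which 8827 of the 16667 did. Of the others, 1534 passed in HT29 alone and 542 in both mouse lines but not in HT29, and 4361 passed in none. The tested genes are therefore those that all 3 lines express: of 43 epithelial junction and keratin genes, 42 passed in HT29, 8 in CT26 and 8 in MC38, and 4 could be compared. The difference passed an adjusted p of 0.05 in 717 of the 8827 genes (8.12%; quasi-likelihood F test of edgeR, p-values adjusted by Benjamini-Hochberg, as for all adjusted p-values here). Of these, 428 were higher in HT29 (4.85%) and 289 lower (3.27%). With normalisation factors computed jointly over all 34 libraries the split was 354 higher and 357 lower, so the excess of higher calls depended on the scaling. Without CT26 SIS ECM library 4 it was 359 higher and 380 lower. With the replicate number as a block within each line it was 625 and 444. Most differences were modest, with a median size of 0.38 log2 units among the 717, and 35 reached 1 log2 unit. The median difference over all tested genes was 0.017. In bulk libraries, fewer cells of a type and less RNA per cell cannot be told apart.

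**Figure D1:**
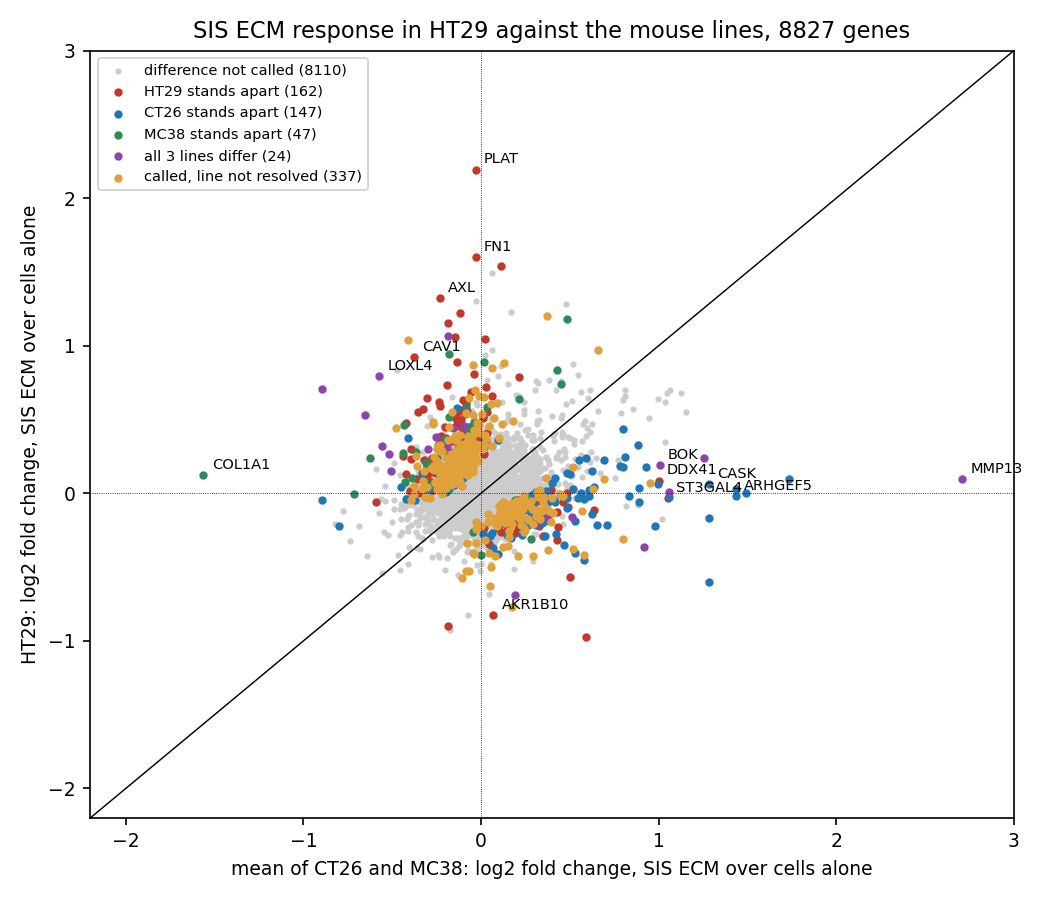
Each point is 1 of the 8827 genes tested. The x axis is the mean log2 fold change of CT26 and MC38 with SIS ECM over cells alone, the y axis the log2 fold change of HT29. The line marks equal responses, and colours mark which line stood apart among the 717 genes called. PLAT, FN1 and AXL lie near the vertical axis, with rises in HT29, and MMP13, ARHGEF5 and CASK near the horizontal one, with HT29 near 0.

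The line behind each difference was read from the 3 pairwise differences in response. A line was said to stand apart where its response differed from both others at an adjusted p below 0.05 and those 2 did not differ. HT29 stood apart in 162 of the 717 genes (111 higher, 51 lower), CT26 in 147 (48 higher, 99 lower) and MC38 in 47 (38 higher, 9 lower). All 3 lines differed from each other in 24 (15 higher, 9 lower), and 337 were not resolved. Over all tested genes, the response differed between HT29 and CT26 in 1282 genes (14.5%; 7.23% higher in HT29 and 7.3% lower), between HT29 and MC38 in 621 (7.04%; 4.96% higher and 2.07% lower) and between CT26 and MC38 in 1669 (18.9%; 11.6% higher in CT26 and 7.35% lower). Here the mouse lines differed from each other in the most genes, but this order depended on the setting. limma voom gave 1127 genes for HT29 and CT26, 1100 for HT29 and MC38 and 1045 for CT26 and MC38, and mouse libraries 4 to 6 alone gave 1542, 1297 and 1095. Without MC38 cells-alone library 1 the count for HT29 and MC38 was 401, that of all 3 lines 13 and that of changes within MC38 465, and without HT29 SIS ECM library 3 MC38 stood apart in 31. With the replicate block, HT29 and CT26 differed in 2039 genes, CT26 stood apart in 232, MC38 in 75, and all 3 lines differed in 42.

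A call of HT29 standing apart did not always mean that HT29 moved. Of the 162 genes, 63 changed in HT29 alone, 22 changed oppositely in HT29 and a mouse line, and in 38 both mouse lines changed and HT29 did not pass. Over all 717, HT29 changed alone in 149, of which 124 were higher, and 1 mouse line changed without HT29 in 306, of which 167 were lower. In this joint fit SIS ECM changed 428 genes in HT29 (4.85%; 3.57% rose, 1.28% fell), 1962 in CT26 (22.2%; 11.2% rose, 11% fell) and 795 in MC38 (9.01%; 3.01% rose, 5.99% fell). These counts depend on the spread per gene that the lines share in the fit: with each line fitted alone on the same genes they were 1442, 775 and 809, and with the replicate block HT29 had 772. Unless stated otherwise, a change within a line that passed or did not pass was judged in the joint fit. Of 107 named genes, 46 passed in HT29 jointly and 73 with HT29 fitted alone, 58 and 43 in CT26, and 47 and 43 in MC38. Fitted alone, COPRS, HILPDA, IER3, LAMP2, MANF, MED10, NQO1, PDK1, PFKP, PTGS2, SLC16A3, SLC22A23, SMAD7, TEAD1 and TYRO3 also passed in HT29. EBP, KLF5, LGALS4, NEU1 and SMAD7 no longer passed in CT26. AURKB, CCND1, KLHL5, LAMP2, TNFAIP3 and TPM1 no longer passed in MC38, while PLXNA1, PLXNB1, PSMB8 and SLC22A23 did.

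A change in one direction in HT29 and the other in both mouse lines was called in 6 of the 8827 genes (0.068%), among them LOXL4, CAV1 and SH3BP5, which rose in HT29 and fell in CT26 and MC38, and STX3 and IP6K2, which fell in HT29 and rose in both mouse lines. With the replicate block there were 15. With CT26 fitted alone its change passed for CAV1, but not for LOXL4 (adjusted p = 0.116), SH3BP5 (adjusted p = 0.055), STX3 (adjusted p = 0.142) or IP6K2 (adjusted p = 0.096). For comparison, 15 genes were called with the same sign in HT29, CT26 and MC38 (0.17%), HT29 and CT26 changed oppositely in 58 (0.657%), and HT29 and MC38 in 32 (0.363%), whatever the third line did.

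LOXL4, a lysyl oxidase that crosslinks collagen and elastin, rose in HT29 and fell in both mouse lines. HT29 had 20.5, 24.7 and 26.6 CPM (lowest, median, highest) with SIS ECM and 12.7, 13.7 and 16.2 CPM in cells alone. MC38 had 1.98, 2.16, 2.43, 2.23 and 1.70 CPM with SIS ECM and 4.72, 3.77, 4.05, 3.05 and 3.58 CPM in cells alone. The cultures did not overlap in these lines, while in CT26 they did, at 38.5–55.9 CPM with SIS ECM and 51.0–68.0 CPM in cells alone. The difference was 1.36 ± 0.13 (SE, as after all log2 values; adjusted p = 2.3e-09), with log2 fold changes of 0.79 in HT29, -0.28 in CT26 and -0.86 in MC38. It was 1.44 against mouse libraries 1 to 3 and 1.24 against libraries 4 to 6.

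CAV1, the coat protein of caveolae, was scarce in HT29, at 1.98, 3.13 and 3.30 CPM with SIS ECM and 0.988, 1.67 and 1.88 CPM in cells alone. CT26 had 1134–1420 CPM with SIS ECM and 1480–1764 CPM in cells alone. MC38 had 454, 455, 373, 342 and 361 CPM with SIS ECM against 509, 534, 554, 530 and 513 CPM in cells alone. The cultures were apart in all 3 lines, with HT29 as the line standing apart: it rose 1.90-fold, against falls of 1.27-fold in CT26 and 1.33-fold in MC38. The difference was 1.30 ± 0.15 (adjusted p = 1.9e-07), at 1.28 against mouse libraries 1 to 3 and 1.29 against libraries 4 to 6. Its partner in caveolae, CAV2, differed by 0.93 ± 0.14 (adjusted p = 1.7e-05), with a rise in HT29 (0.74) and values of -0.20 and -0.18 in CT26 and MC38 that did not pass.

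SH3BP5, which binds the kinase JNK, differed by 0.90 ± 0.12 (adjusted p = 3.0e-06), with log2 fold changes of 0.48, -0.34 and -0.50 in HT29, CT26 and MC38. Its cultures overlapped in HT29 (5.48–7.10 CPM with SIS ECM and 4.10–5.58 CPM in cells alone) and in CT26, but not in MC38. The SNARE protein of apical membranes STX3 had 109–117 CPM with SIS ECM and 123–132 CPM in cells alone in HT29, a fall of 1.12-fold. In MC38 it had 27.4, 30.1, 28.6, 28.8 and 25.6 CPM with SIS ECM and 18.8, 18.9, 21.1, 18.9 and 16.6 CPM in cells alone, a rise of 1.49-fold. No library overlapped in any line for STX3, with a difference of -0.55 ± 0.06 (adjusted p = 1.9e-07). IP6K2, an inositol hexakisphosphate kinase, differed by -0.38 ± 0.06 (adjusted p = 1.7e-05), with changes under 1.2-fold in each line.

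**Figure D2:**
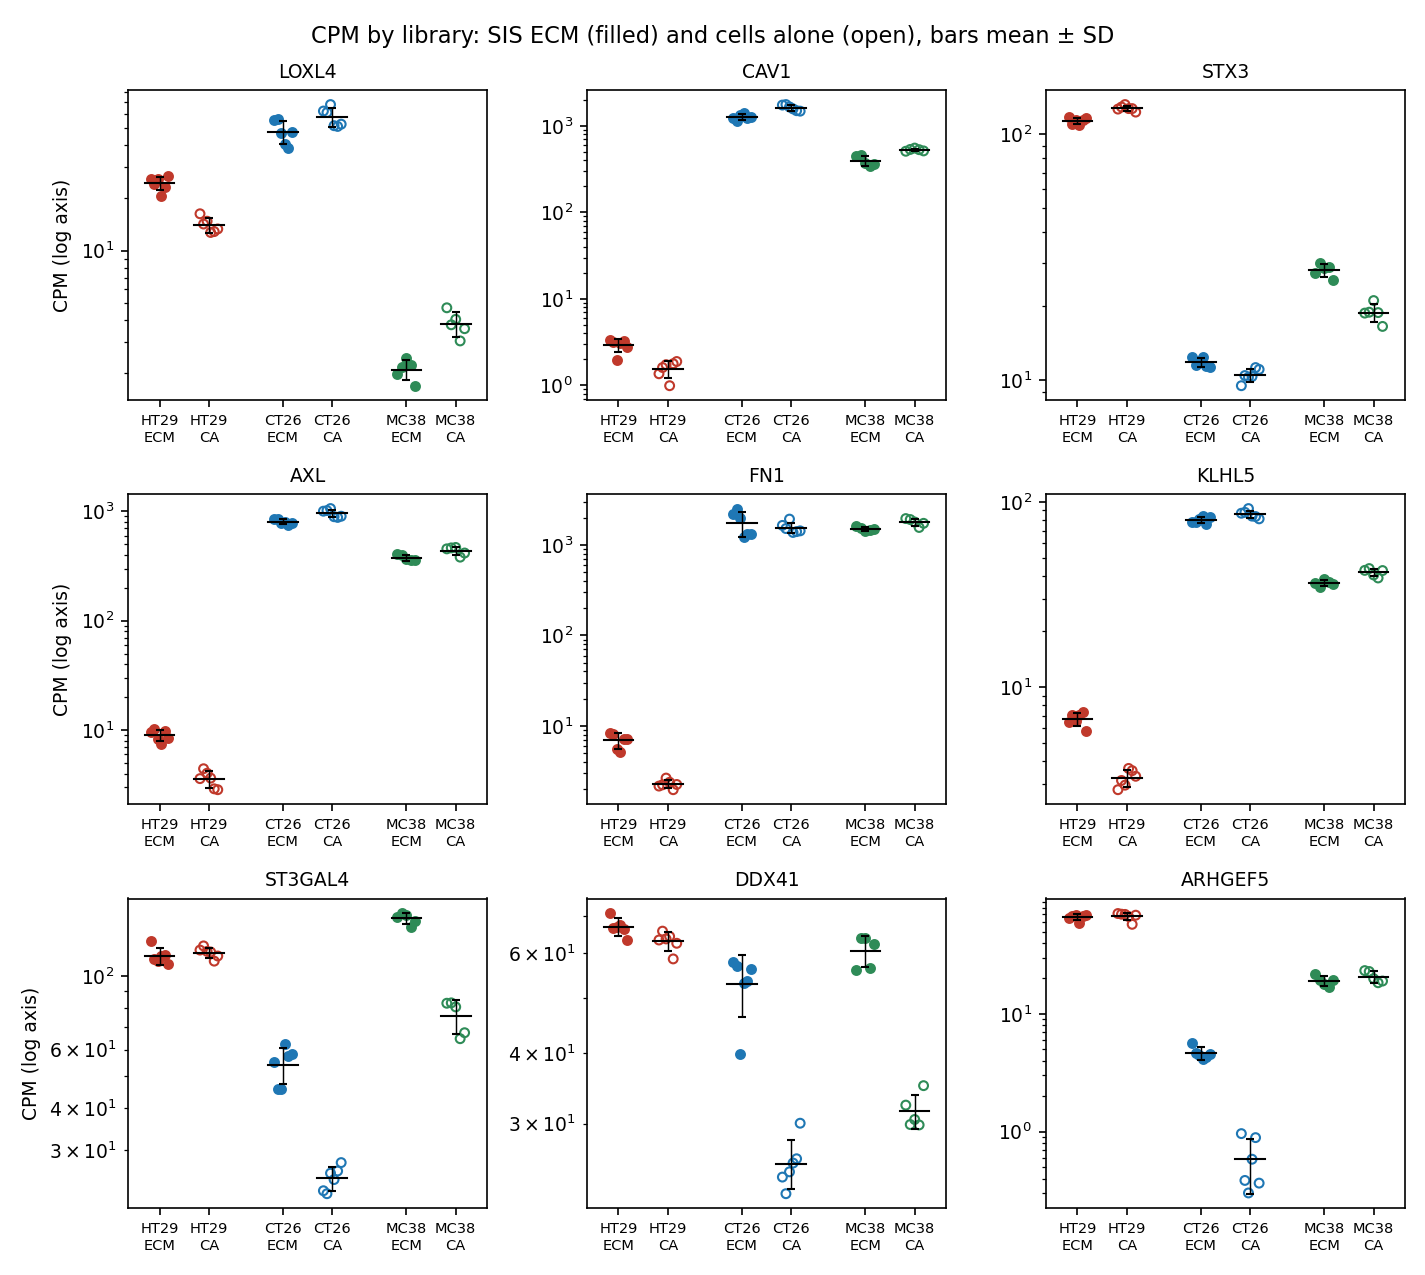
CPM of 9 genes by library on a logarithmic axis, with SIS ECM libraries filled and cells-alone libraries open, and bars for mean ± SD over 6 libraries (5 in MC38). LOXL4 and CAV1 were higher with SIS ECM in HT29 and lower in both mouse lines, STX3 was lower in HT29 and higher in both mouse lines, AXL, FN1 and KLHL5 were higher in HT29, ST3GAL4 and DDX41 were higher in both mouse lines, and ARHGEF5 in CT26.

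Rises in HT29 came with several of the largest differences, alone in FN1 and with a fall in a mouse line in others. Fibronectin, FN1, a matrix glycoprotein bound by integrins (mouse chromosome 1, 71585520–71653200, minus strand, in the mm10 build), had 5.15, 7.20 and 8.43 CPM in HT29 with SIS ECM against 1.98, 2.25 and 2.66 CPM in cells alone. In CT26 it had 1221, 1667 and 2520 CPM with SIS ECM and 1372, 1473 and 1927 CPM in cells alone. MC38 had 1631, 1546, 1426, 1464 and 1484 CPM against 1953, 1906, 1790, 1558 and 1731 CPM. The cultures were apart in HT29 and overlapped in both mouse lines, whose changes did not pass (0.18 and -0.24). The difference was 1.63 ± 0.19 (adjusted p = 4.4e-07), at 1.53 and 1.73 against mouse libraries 1 to 3 and 4 to 6.

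AXL (mouse chromosome 7, 25757273–25788705, minus strand), a receptor tyrosine kinase for the ligand GAS6, had 7.45, 9.05 and 10.3 CPM in HT29 with SIS ECM against 2.86, 3.63 and 4.45 CPM in cells alone, a 2.50-fold rise with no overlap. It fell in CT26 (756–854 CPM with SIS ECM, 879–1059 CPM in cells alone; log2 fold change -0.25 ± 0.08), also with no overlap. In MC38 (407, 396, 364, 358 and 356 CPM against 454, 463, 467, 381 and 416 CPM) the value of -0.21 did not pass. The difference was 1.55 ± 0.11 (adjusted p = 2.7e-12), at 1.57 and 1.47 against the ranges. Of its 2 relatives, MERTK rose in CT26 (1.11) and differed by -0.58 ± 0.14 (adjusted p = 0.0070), with CT26 standing apart, and TYRO3 differed by 0.32 (adjusted p = 0.045), a call lost on 23 of 34 omissions of 1 library.

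KLHL5, a Kelch-like protein, had the smallest adjusted p of all (3.9e-13), with a difference of 1.20 ± 0.08 (1.26 and 1.13 against the ranges). It had 5.84, 6.83 and 7.36 CPM in HT29 with SIS ECM and 2.80, 3.23 and 3.65 CPM in cells alone, 2.08-fold higher and without overlap. MC38 fell slightly (-0.19) and CT26 did not pass (-0.10). Cyclin D1, CCND1, the G1 cyclin that Wnt and growth factor signals raise, had 118–136 CPM in HT29 with SIS ECM and 85.5–107 CPM in cells alone. It rose in HT29 (0.35), fell in MC38 (-0.20) and differed by 0.52 ± 0.07 (adjusted p = 1.5e-06). The arrestin-domain protein ARRDC3 differed by 0.83 ± 0.12 (adjusted p = 1.7e-05) and the deubiquitinase TNFAIP3, which restrains NF-kB, by 0.91 ± 0.19 (adjusted p = 0.0017). Both rose in HT29 (0.59 and 0.55) and fell in MC38 (-0.42 and -0.57). The MC38 value of ARRDC3 was -0.75 in libraries 1 to 3 and -0.06 in libraries 4 to 6. Its difference was 1.01 and 0.61 against these ranges.

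Of the genes that changed in HT29 alone, 25 were lower. AKR1B10, an aldo-keto reductase of a family in which a shared symbol may not mark orthologs, had 15.0, 16.9 and 20.6 CPM with SIS ECM against 28.2, 30.2 and 33.7 CPM in cells alone, with no overlap. In CT26 it had 24.3–31.8 against 22.7–27.5 CPM and in MC38 15.0–20.5 against 15.8–17.7 CPM, each overlapping. The difference was -0.90 ± 0.10 (adjusted p = 2.6e-07). Outside this group, the actin-binding tropomyosin TPM1 fell in HT29 (-0.23) but rose in MC38 (0.16), with a difference of -0.33 ± 0.05 (adjusted p = 6.4e-05).

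In other genes in which HT29 stood apart, both mouse lines rose. ST3GAL4, a sialyltransferase that caps glycans with sialic acid (mouse chromosome 9, 35046576–35119268, minus strand), had 108, 113 and 127 CPM in HT29 with SIS ECM and 111, 118 and 123 CPM in cells alone. In CT26 it had 45.7, 56.1 and 62.2 CPM with SIS ECM against 22.2, 25.0 and 27.5 CPM. In MC38 it had 150, 155, 152, 140 and 146 CPM against 82.7, 82.9, 80.7, 64.7 and 67.5 CPM. HT29 thus overlapped (-0.03 ± 0.07), while it rose 2.19-fold in CT26 and 1.96-fold in MC38 with no overlap, and the difference was -1.08 ± 0.09 (adjusted p = 6.1e-11; -1.01 and -1.22 against the ranges).

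DDX41, a helicase of RNA splicing that has also been described as a sensor of nucleic acids, had the same pattern. HT29 had 63.5–70.9 CPM with SIS ECM and 58.7–65.7 CPM in cells alone, CT26 had 39.9–57.9 against 22.5–30.0 CPM, and MC38 had 56.2, 63.8, 63.9, 56.6 and 62.3 against 32.3, 29.9, 30.5, 29.8 and 35.0 CPM. Only the mouse cultures were apart, and the difference was -0.91 ± 0.08 (adjusted p = 2.0e-09; -0.95 and -0.88 against the ranges). The DNA damage recognition protein DDB2, a p53 target, had a fold change near 1 in HT29 and rose in CT26 (0.54) and MC38 (0.42), and the urokinase receptor PLAUR had 0.02 in HT29 and rose in both (0.32 and 0.47). Their differences were -0.48 ± 0.09 and -0.37 ± 0.08 (adjusted p = 3.7e-04 and 0.0034).

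**Figure D3:**
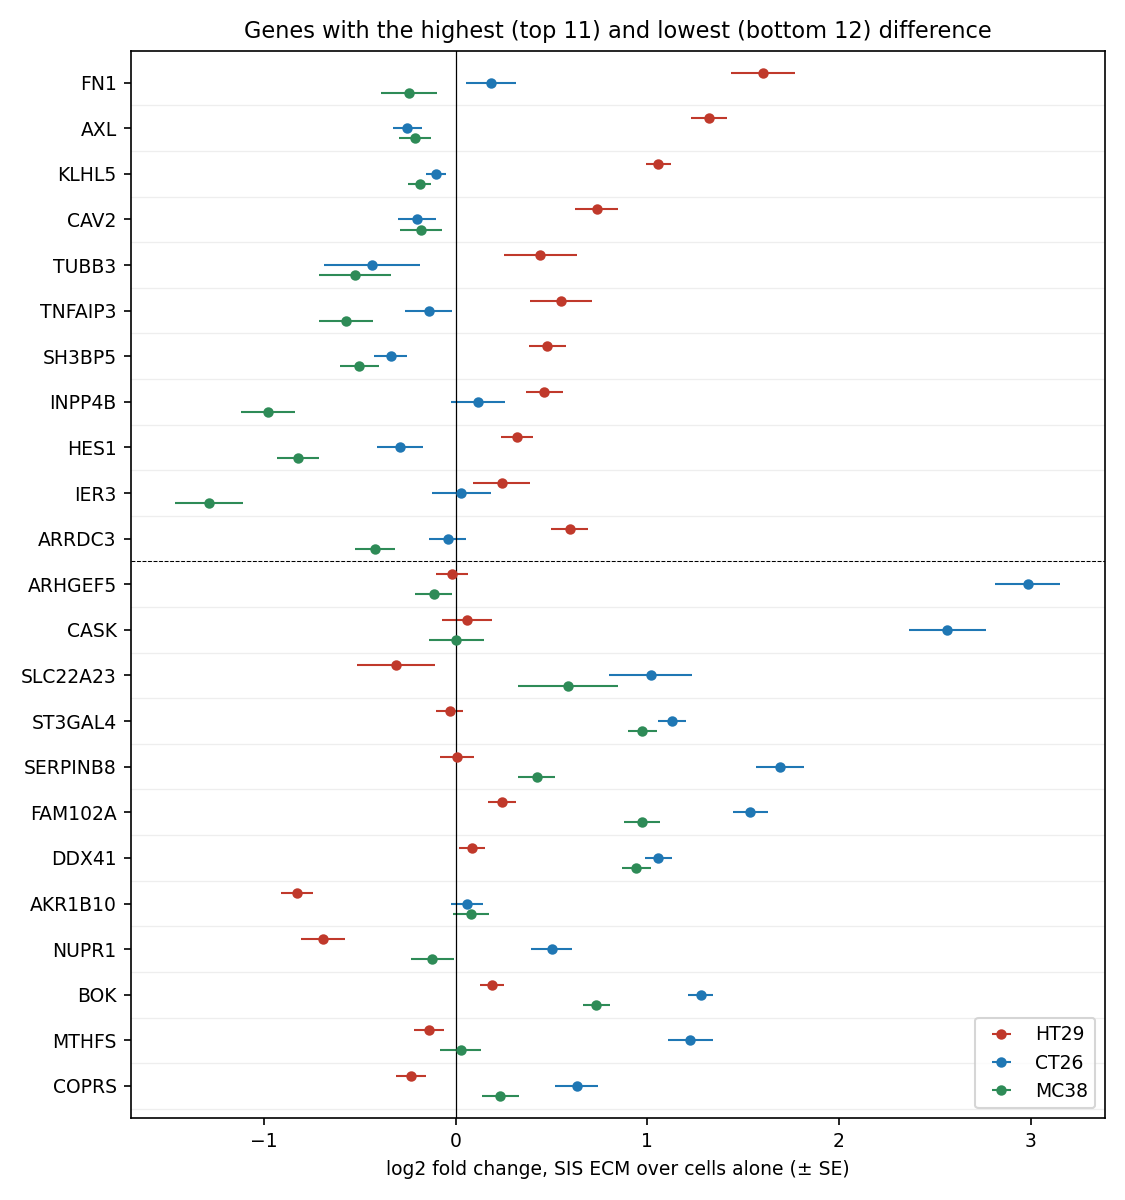
Log2 fold change with SIS ECM over cells alone (± SE) in HT29, CT26 and MC38 for 11 of the 12 genes with the highest difference (upper rows) and the 12 with the lowest (lower rows). In the upper rows HT29 lies right of both mouse lines, with FN1 at 1.60 in HT29. In the lower rows CT26 lies right of HT29, and so does MC38 in all but ARHGEF5 and CASK, up to 2.99 for ARHGEF5 in CT26.

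CT26 was the line behind ARHGEF5 and CASK, the 2 lowest differences among genes expressed at 4 CPM or more in a culture of every line. ARHGEF5, a guanine nucleotide exchange factor, had 59.6–69.7 CPM in HT29 with SIS ECM against 57.7–71.2 CPM in cells alone. In CT26 it had 4.13, 4.49 and 5.71 CPM against 0.302, 0.484 and 0.963 CPM, 7.92-fold higher, and in MC38 16.9–22.0 against 18.4–23.3 CPM. Of the lines, CT26 alone had cultures apart, and the difference was -1.46 ± 0.13 (adjusted p = 1.1e-09; -1.54 and -1.42 against the ranges), while HT29 and MC38 differed by 0.09 (adjusted p = 0.72). CASK, a membrane scaffold kinase, had 1.04-fold in HT29 and rose 5.92-fold in CT26 (5.97–12.6 CPM with SIS ECM, 0.771–2.25 CPM in cells alone), and differed by -1.23 ± 0.18 (adjusted p = 2.3e-05; -1.17 and -1.43 against the ranges). The folate enzyme MTHFS (-0.76 ± 0.11) and the mediator subunit MED10 (-0.54 ± 0.07) also rose in CT26 and passed in no other line (adjusted p of the difference 2.2e-05 and 2.6e-06).

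Falls in CT26 put other genes on the higher side. PTGS2, the inducible cyclooxygenase, had 497–770 CPM in CT26 with SIS ECM and 898–1367 CPM in cells alone, with no overlap, and a difference of 0.79 ± 0.16 (adjusted p = 0.0015). Its HT29 value of 0.38 also added to this difference. That value did not pass in the joint fit (adjusted p = 0.12) but did with HT29 fitted alone (adjusted p = 0.0019). With each line fitted alone PTGS2 had -0.87 in CT26 and 0.04 in MC38. The quinone reductase NQO1 had 381–474 CPM in HT29 with SIS ECM and 462–521 CPM in cells alone (-0.22, adjusted p = 0.063). It fell 2.62-fold in CT26, to 0.901–1.90 CPM with SIS ECM against 2.63–3.97 CPM in cells alone, and differed by 0.58 ± 0.11 (adjusted p = 4.5e-04). The fatty acid elongase ELOVL6 and the acyl-CoA synthetase ACSL5 fell in CT26 (-0.61 and -0.47), with differences of 0.47 ± 0.09 and 0.31 ± 0.07 (adjusted p = 6.0e-04 and 0.0038). The heat shock gene HSPA1B fell in CT26 (-1.71), with a difference of 0.85 (adjusted p = 3.7e-04). It was scarce there, at 0.252–0.844 CPM with SIS ECM and 1.48–2.26 CPM in cells alone, against 377–428 and 343–446 CPM in HT29. The low counts and its near-identical copy HSPA1A make this value uncertain.

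MC38 falls were behind most of the genes in which MC38 stood apart on the higher side, 28 of 38. COL1A1, a chain of type I collagen, had 0.668–1.22 CPM with SIS ECM and 0.569–1.17 CPM in cells alone in HT29, and 16.1–35.5 and 18.5–32.4 CPM in CT26. In MC38 it had 1.14, 0.949, 0.539, 0.774 and 0.533 CPM with SIS ECM against 7.82, 7.88, 6.37, 6.96 and 8.43 CPM in cells alone, 9.47-fold lower. HT29 and CT26 overlapped, and the difference of 1.69 ± 0.30 (adjusted p = 3.8e-04; 1.47 and 1.88 against the ranges) came with a value of 0.01 between HT29 and CT26. INPP4B, a phosphatase of phosphoinositides, rose in HT29 (60.8–65.9 CPM with SIS ECM against 43.9–48.7 CPM in cells alone) and fell in MC38 (2.86, 3.15, 3.00, 2.96 and 3.44 CPM against 6.67, 5.87, 5.74, 5.80 and 6.26 CPM). It differed by 0.89 ± 0.14 (adjusted p = 5.0e-05). The early response gene IER3 fell in MC38 (-1.28), with 1.12 against mouse libraries 1 to 3 and 0.57 against libraries 4 to 6 and 0.87 ± 0.19 over all (adjusted p = 0.0031). On the lower side, the LIM domain protein FHL2 rose in MC38 alone (0.78), to 9.46–10.9 CPM against 5.16–6.79 CPM, with a difference of -0.36 ± 0.08 (adjusted p = 0.0029).

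All 3 lines differed from each other in MMP13, a collagenase, the lowest difference among the genes named. HT29 had 2.47, 2.76 and 2.95 CPM with SIS ECM against 1.92, 2.34 and 3.47 CPM in cells alone. CT26 had 105, 125 and 158 CPM against 5.28, 7.22 and 12.7 CPM, and MC38 4.62, 4.79, 4.08, 3.41 and 3.63 CPM against 1.27, 1.26, 1.91, 1.68 and 1.46 CPM. HT29 overlapped at 1.07-fold, while MMP13 rose 15.8-fold in CT26 and 2.72-fold in MC38 without overlap, and the difference was -2.62 ± 0.22 (adjusted p = 3.4e-10; -2.65 and -2.67 against the number ranges).

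A graded rise of this kind was also seen in BOK, a BCL-2 family member, in SERPINB8, an intracellular serpin, and in FAM102A. BOK had 1.14-fold in HT29, 49.1–59.1 CPM in CT26 with SIS ECM and 20.1–24.4 CPM in cells alone, 2.43-fold higher, and a 1.66-fold rise in MC38 (difference -0.82 ± 0.08, adjusted p = 4.0e-09). SERPINB8 had a log2 fold change of 0.01 in HT29 and rose 3.23-fold in CT26 and 1.34-fold in MC38, and FAM102A had 0.24 in HT29 and rose 2.90-fold and 1.96-fold. The HT29 values of these 3 genes did not pass in the joint fit, but with HT29 fitted alone BOK (adjusted p = 0.019) and FAM102A (adjusted p = 0.032) rose. The Notch target HES1 ran the other way, with 0.32 in HT29, -0.29 in CT26, which did not pass, and -0.82 in MC38 (difference 0.88 ± 0.12, adjusted p = 4.2e-06). NUPR1, a stress-induced nuclear protein, fell in HT29 (-0.69) and rose in CT26 (0.50), with -0.12 in MC38. Its HT29 cultures overlapped, at 6.10–7.40 CPM with SIS ECM and 6.10–14.9 CPM in cells alone. The difference was -0.88 ± 0.14 (adjusted p = 5.2e-05).

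For 2 of these genes the pairwise tests did not resolve a line. TUBB3, a beta tubulin typical of neurons, differed by 0.92 ± 0.25 (adjusted p = 0.015) although no line's own change passed in the joint fit. With HT29 fitted alone it rose (0.44, adjusted p = 0.0024). In MC38 with SIS ECM it had 39.2 and 39.7 CPM in libraries 1 and 3 and 15.2–18.2 CPM in libraries 4 to 6. SLC22A23, a solute carrier, differed by -1.11 ± 0.27 (adjusted p = 0.0069), with a rise in CT26 (1.02) at 8.94–28.5 CPM with SIS ECM and 5.79–12.4 CPM in cells alone. HT29 was the line standing apart in COPRS, a histone-binding partner of the arginine methyltransferase PRMT5, which differed by -0.66 ± 0.11 (adjusted p = 8.0e-05), with a rise in CT26 (0.63) and values of -0.23 in HT29 and 0.23 in MC38 that did not pass.

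Gene lists were read against the 8.12% of all tested genes that were called and against the median difference of 0.017. Counts and medians describe the lists, and no list was tested. With each line fitted alone, 871 of all tested genes rose and 571 fell in HT29. The counts were 439 and 336 in CT26, and 236 and 573 in MC38. In the joint fit 315 rose in HT29 and 992 in CT26, so the order of these lines in rises turned over all tested genes.

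Interferon-stimulated genes showed how a mean over both mouse lines can hide a difference. Of 41 tested, 29 rose in HT29, 37 rose and 1 fell in CT26, and 3 rose and 1 fell in MC38. With each line fitted alone 38 rose in HT29, 31 rose and 1 fell in CT26, and 5 rose and 3 fell in MC38. The order of HT29 and CT26 in this count thus turned, as it did over all tested genes. The median log2 fold change was 0.47, 0.94 and 0.11. HT29 thus lay between the mouse lines: its response was lower than that of CT26 in 16 and higher in 3, and higher than that of MC38 in 15 and lower in 0. The difference against the mean was called in 5 higher and 2 lower, with a median of -0.06. SAMHD1, which degrades the nucleotides that viruses need, had 46.5, 56.3 and 58.2 CPM in HT29 with SIS ECM against 26.0, 32.3 and 32.9 CPM in cells alone. It rose in CT26 too (136–146 against 106–128 CPM) with no overlap in either, and HT29 stood apart (difference 0.57 ± 0.08, adjusted p = 1.1e-05).

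IFIT2, an antiviral protein of a family with uncertain matches, rose in HT29 (0.38) and fell in CT26 (-0.48), where it had 22.2–26.2 CPM with SIS ECM and 30.6–38.0 CPM in cells alone with no overlap. MC38 had -0.03, and the difference was 0.63 ± 0.10 (adjusted p = 3.0e-05). IRF9, the DNA-binding part of the factor that type I interferon activates, rose in all 3 lines (0.22, 0.82 and 0.28), with CT26 standing apart and a difference of -0.33 ± 0.08 (adjusted p = 0.0064). The double-stranded RNA kinase EIF2AK2 rose in HT29 (0.47; 221–280 CPM against 178–201 CPM), with 0.02 in CT26 and 0.22 in MC38, and differed by 0.35 ± 0.09 (adjusted p = 0.016). Markers of leukocytes, which could add interferon signals, summed to 18.4–21.1 CPM in HT29 with SIS ECM and 19.7–24.2 CPM in cells alone, to 1.64–10.7 and 1.28–3.00 CPM in CT26, and to 0.630–1.51 and 0.516–1.10 CPM in MC38. Nearly all of it was CD68, with PTPRC and CSF1R under 0.1 CPM in each group's mean, and its part in the result was not tested.

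**Figure D4:**
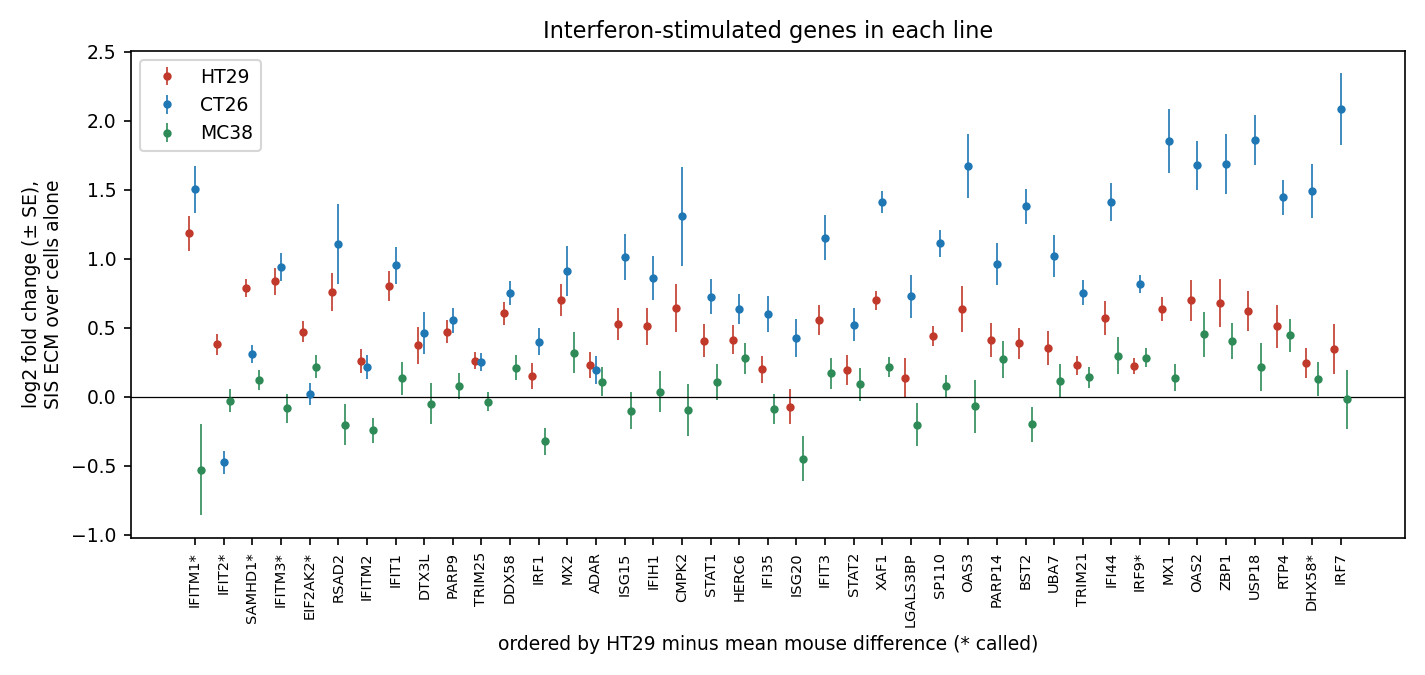
Log2 fold change with SIS ECM over cells alone (± SE) in HT29, CT26 and MC38 for the 41 interferon-stimulated genes tested, ordered by the difference, with the 7 called ones starred. CT26 lies above HT29 over most of the axis and HT29 above MC38, with IFIT2 as the gene that fell in CT26.

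Promoter windows of the mouse genes, 250 bases before to 50 after the annotated start (RefSeq, GRCm38.p6), were searched for the interferon-stimulated response element, read as GAAA, any 2 bases and GAAA again, on both strands. It was found in 13 of the 31 interferon-stimulated genes that had a window (41.9%), in 256 of 7191 tested genes with a window (3.56%) and in 1079 of 27025 genes in all (3.99%). A match is a description and not a binding site. Of the 7 called members, Eif2ak2 and Ifitm3 held it, and their windows are shown with the element in capitals because their responses to SIS ECM in the mouse lines were unlike each other although both hold the letters.
Eif2ak2, chr17:78882523-78882822, minus strand: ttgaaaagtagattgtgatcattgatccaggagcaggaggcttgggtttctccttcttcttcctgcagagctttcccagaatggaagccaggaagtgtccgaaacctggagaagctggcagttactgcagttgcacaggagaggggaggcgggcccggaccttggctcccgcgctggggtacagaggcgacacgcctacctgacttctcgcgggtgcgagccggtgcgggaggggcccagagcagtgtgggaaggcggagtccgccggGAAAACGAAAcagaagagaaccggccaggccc
Ifitm3, chr7:141010695-141010994, minus strand: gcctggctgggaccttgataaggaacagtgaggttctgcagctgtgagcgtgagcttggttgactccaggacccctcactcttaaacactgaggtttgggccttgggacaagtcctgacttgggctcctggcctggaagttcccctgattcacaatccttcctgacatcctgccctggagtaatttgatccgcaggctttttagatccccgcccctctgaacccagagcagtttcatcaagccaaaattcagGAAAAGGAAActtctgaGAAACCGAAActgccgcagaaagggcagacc
The elements lie after the annotated start in both. Eif2ak2 had 0.02 in CT26 and 0.22 in MC38. IFITM3, a membrane protein that blocks virus entry, had 0.84 in HT29, 0.94 in CT26 and -0.08 in MC38, with MC38 standing apart (difference 0.41 ± 0.12, adjusted p = 0.031).

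MHC class I genes gave 1 call among 15, PSMB8, a subunit of the immunoproteasome. It had 1.14-fold in HT29, which did not pass in the joint fit but did with HT29 fitted alone (adjusted p = 0.038), rose 3.59-fold in CT26 (4.35, 5.35 and 9.13 CPM with SIS ECM against 0.731, 1.77 and 2.61 CPM in cells alone) and had -0.28 in MC38, which did not pass, and the difference was -0.60 ± 0.15 (adjusted p = 0.012). Of the list, 3 rose in HT29, 7 in CT26 and 0 in MC38, where 1 fell. With each line fitted alone 7 rose and 2 fell in HT29, 6 rose in CT26 and 5 fell in MC38.

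TGF-beta and YAP target genes were called higher in 8 of 27 and lower in 0, with a median difference of 0.21. In HT29 7 rose and 0 fell, in CT26 4 rose and 6 fell, and in MC38 2 rose and 6 fell. With each line fitted alone these were 13 and 0, 2 and 4, and 2 and 5. Besides AXL, the inhibitory SMAD gene SMAD7 had 20.7–25.2 CPM in HT29 with SIS ECM and 18.6–21.4 CPM in cells alone, and fell in CT26 (-0.23) and MC38 (-0.38), with a difference of 0.49 ± 0.08 (adjusted p = 1.3e-04). TEAD1, a DNA-binding partner of YAP, had 0.14 in HT29, fell in CT26 (-0.50) and had 0.02 in MC38 (difference 0.38 ± 0.08, adjusted p = 0.0015). WWTR1, which encodes TAZ, rose in HT29 (0.87 ± 0.26), with -0.16 in CT26 and 0.08 in MC38 (difference 0.92 ± 0.26, adjusted p = 0.025).

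The TEAD element CATTCC, on either strand, was found in the windows of 8 of the 20 members that had one (40.0%), against 952 of 7191 tested genes (13.2%) and 4481 of 27025 in all (16.6%). It was searched after the values of this list had been seen. Matches of both elements shared bases in 3 windows of all genes. The 8 members were AXL, LATS2, WWTR1, YAP1, AMOTL2, CRIM1, CCN1 and AJUBA. The window of Axl is shown because AXL had the largest rise in HT29 among the members named, with the element in capitals, read on the opposite strand and lying before the annotated start.
Axl, chr7:25788684-25788983, minus strand: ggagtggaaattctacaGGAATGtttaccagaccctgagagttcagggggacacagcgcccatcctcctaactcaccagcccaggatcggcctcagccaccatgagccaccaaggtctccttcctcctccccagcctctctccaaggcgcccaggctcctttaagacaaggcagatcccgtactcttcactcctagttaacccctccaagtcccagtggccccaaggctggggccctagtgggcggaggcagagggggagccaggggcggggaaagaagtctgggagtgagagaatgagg
The mouse gene with this window fell in CT26 and did not pass in MC38. Human promoter windows were not used here.

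NF-kB and chemokine genes were called higher in 7 of 18 and lower in 0, with a median difference of 0.31. In HT29 6 rose and 0 fell, against 1 and 2 in CT26 and 1 and 2 in MC38 (8 and 0, 0 and 1, and 0 and 2 with each line fitted alone). CXCL1, a neutrophil chemokine of a family in which symbols are an uncertain match between species, had 2.74, 3.31 and 3.80 CPM in HT29 with SIS ECM and 1.14, 1.56 and 1.62 CPM in cells alone, with no overlap and a 2.23-fold rise. Both mouse lines overlapped, and the difference was 1.34 ± 0.20 (adjusted p = 2.3e-05). CSF1, the macrophage growth factor, rose in HT29 (0.63) at 1.14–2.01 CPM with SIS ECM and 0.867–1.24 CPM in cells alone, which overlapped, and differed by 0.71 ± 0.14 (adjusted p = 6.8e-04).

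Matrix genes were few in the comparison: of 50 collagens and glycoproteins, 28 passed the filter in HT29, 37 in CT26 and 45 in MC38, and 24 could be tested. Of these, 3 were called higher and 0 lower, with a median difference of 0.29. By line, 3 rose and 0 fell in HT29, 8 and 0 in CT26, and 1 and 12 in MC38, with medians of 0.16, 0.25 and -0.49. With each line fitted alone the counts were 8 and 1, 3 and 0, and 1 and 12. HT29 then had more rises than CT26, as it did over all tested genes. COL16A1 had 55.6–64.4 CPM in HT29 with SIS ECM and 39.9–48.1 CPM in cells alone, and in MC38 144, 134, 117, 134 and 125 CPM against 206, 206, 209, 158 and 196 CPM. Both were apart, in opposite directions, and the difference was 0.70 ± 0.19 (adjusted p = 0.017), with MC38 standing apart. PLAT, tissue plasminogen activator, rose 4.58-fold in HT29 (1.19, 1.62 and 2.69 CPM against 0.188, 0.389 and 0.502 CPM), with no overlap, and differed by 2.23 ± 0.43 (adjusted p = 8.5e-04). In CT26 and MC38 PLAT overlapped. Integrins and matrix receptors had 2 of 13 called, the alpha V chain ITGAV (0.37 ± 0.08, adjusted p = 0.0031), which rose in HT29, and dystroglycan, DAG1 (0.42, adjusted p = 0.039, lost on 13 of 34 omissions), which fell in MC38.

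Hypoxia and glycolysis genes were called higher in 3 of 16 and 3 of 18, and MC38 stood apart in all 6. In HT29 1 hypoxia gene and 0 glycolysis genes rose, in CT26 5 and 2 rose, and in MC38 7 and 11 fell and 0 rose. With each line fitted alone 5 and 6 rose in HT29, 2 and 2 in CT26, and 9 and 12 fell in MC38. Here too HT29 then had more rises than CT26, as over all tested genes. The lipid droplet protein HILPDA fell in MC38 (-0.75; difference 0.51, adjusted p = 0.030) and so did the lactate exporter SLC16A3 (-0.61; 0.48, adjusted p = 0.027). The MC38 value of HILPDA was -1.3 in libraries 1 to 3 and -0.36 in libraries 4 to 6. Its call was lost on 4 of 34 omissions, that of the hypoxia gene EGLN1 on 8 and that of SLC16A3 on 1. The calls of PFKP (adjusted p = 0.047) and PDK1 (0.050) were lost on 19 and 20 of 34 omissions. Mitochondrially encoded genes, whose share moved with the library number, had 0 of 12 called, and nuclear genes of the respiratory chain 0 of 27. At an unadjusted p under 0.05, 1901 of the 8827 genes passed in the difference.

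Cholesterol synthesis genes had a median difference of 0.01, with 0 of 28 called higher and 3 lower. In HT29 7 fell and 1 rose, in CT26 4 fell and 4 rose, and in MC38 16 fell and 1 rose. These were 19 and 1, 1 and 2, and 16 and 0 with each line fitted alone. EBP, a sterol isomerase, fell in HT29 (-0.37) and rose in CT26 (0.26), with a difference of -0.44 ± 0.11 (adjusted p = 0.0099). The lysosomal cholesterol carrier NPC2 rose in CT26 (0.57) and fell in MC38 (-0.24), and its difference of -0.28 (adjusted p = 0.021) was -0.15 against mouse libraries 4 to 6 and not called there (adjusted p = 0.093). The sterol response element was searched only as 1 exact string of bases, without variants. It was found in 0 of the 21 mouse genes of this list that had a promoter window. In all, 27 of 27025 genes held it (0.0999%). A string this rare would seldom occur in 21 genes, so this search cannot show whether these promoters lack sterol elements.

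Among genes of the endoplasmic reticulum and of lysosomes the calls were on the lower side. Chaperones and unfolded protein response genes gave 4 of 18 lower and 0 higher (median -0.21), with 3 falls in HT29 (10 with HT29 fitted alone) and 3 rises in CT26. They were MANF (-0.33 ± 0.07, adjusted p = 0.0015) and CRELD2 (-0.51 ± 0.12, adjusted p = 0.0061), both secreted under stress of that compartment, the sensor ERN1 (-0.54) and its target XBP1 (-0.27). CRELD2 fell in HT29 (-0.43), and ERN1 rose in CT26 (0.64), with CT26 standing apart. In MANF HT29 stood apart. It had -0.17 in HT29, which did not pass in the joint fit, rose in CT26 (0.22) and had 0.09 in MC38. With each line fitted alone XBP1 had -0.13, 0.13 and 0.16 in HT29, CT26 and MC38, and none of these passed. Lysosomal genes gave 5 of 24 lower and 0 higher (median -0.17), with 1 fall in HT29, 8 rises in CT26 and 1 rise in MC38. Fits of each line alone gave 3 rises and 3 falls in HT29, 3 rises in CT26 and 0 changes in MC38. The sialidase NEU1 fell in HT29 (-0.28) and rose in CT26 (0.40), with a difference of -0.43 ± 0.10 (adjusted p = 0.0063). The membrane protein LAMP2 rose in CT26 (0.72) and MC38 (0.25), with a difference of -0.35 ± 0.09 (adjusted p = 0.0099). In MC38 LAMP2 had 0.49 in libraries 1 to 3 and 0.03 in libraries 4 to 6.

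Calls varied among further lists. Immediate early genes had 4 of 28 higher, among them PHLDA1, which rose in HT29 (170–190 CPM against 129–142 CPM) and fell in CT26 (45.2–55.8 CPM against 58.1–76.7 CPM), both without overlap, and differed by 0.60 ± 0.08 (adjusted p = 1.1e-05). Guidance and ephrin genes had 5 of 23 higher and 1 lower, with EFNA5 (0.41) and the plexin PLXNA1 (0.52) higher and PLXNB1 (-0.59) lower. In EFNA5 HT29 stood apart, with a rise in HT29 (0.26) and -0.07 and -0.23 in CT26 and MC38. With each line fitted alone PLXNA1 had 0.30, -0.16 and -0.27 in HT29, CT26 and MC38, and PLXNB1 0.04, 1.01 and 0.26. Proliferation genes had 3 of 44 higher, and of these AURKB (adjusted p = 0.041) and FOXM1 (0.045) lost their calls on 15 and 23 omissions and against mouse libraries 4 to 6 alone. Of the 36 matched genes of gut differentiation 6 could be tested, with the factor KLF5 and the receptor EPHB2 higher and the lectins LGALS4 and LGALS3 lower. KLF5 had 0.12, -0.27 and -0.34 in HT29, CT26 and MC38, with HT29 standing apart. LGALS3 had -0.14, 0.42 and -0.12, with CT26 standing apart. EPHB2 rose in HT29 (0.39) and had 0.05 and -0.19 in CT26 and MC38, with no line resolved. LGALS4 fell in HT29 (-0.38) and rose in CT26 (0.51), but was not called against mouse libraries 1 to 3 (adjusted p = 0.071). Its CT26 value was 0.94 in libraries 1 to 3 and 0.125 in libraries 4 to 6. In MC38 it was scarce, at 0.294–0.956 CPM with SIS ECM and 0.236–0.683 CPM in cells alone, with -0.61 and 1.18 in these ranges. EPHB2 differed by 0.30 against mouse libraries 1 to 3 (adjusted p = 0.18) and by 0.62 against libraries 4 to 6, and lost its call on 6 of 34 omissions. Ribosomal protein genes (45), aminoacyl-tRNA synthetases (20) and metal transport genes (18) had 0 called.

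**Figure D5:**
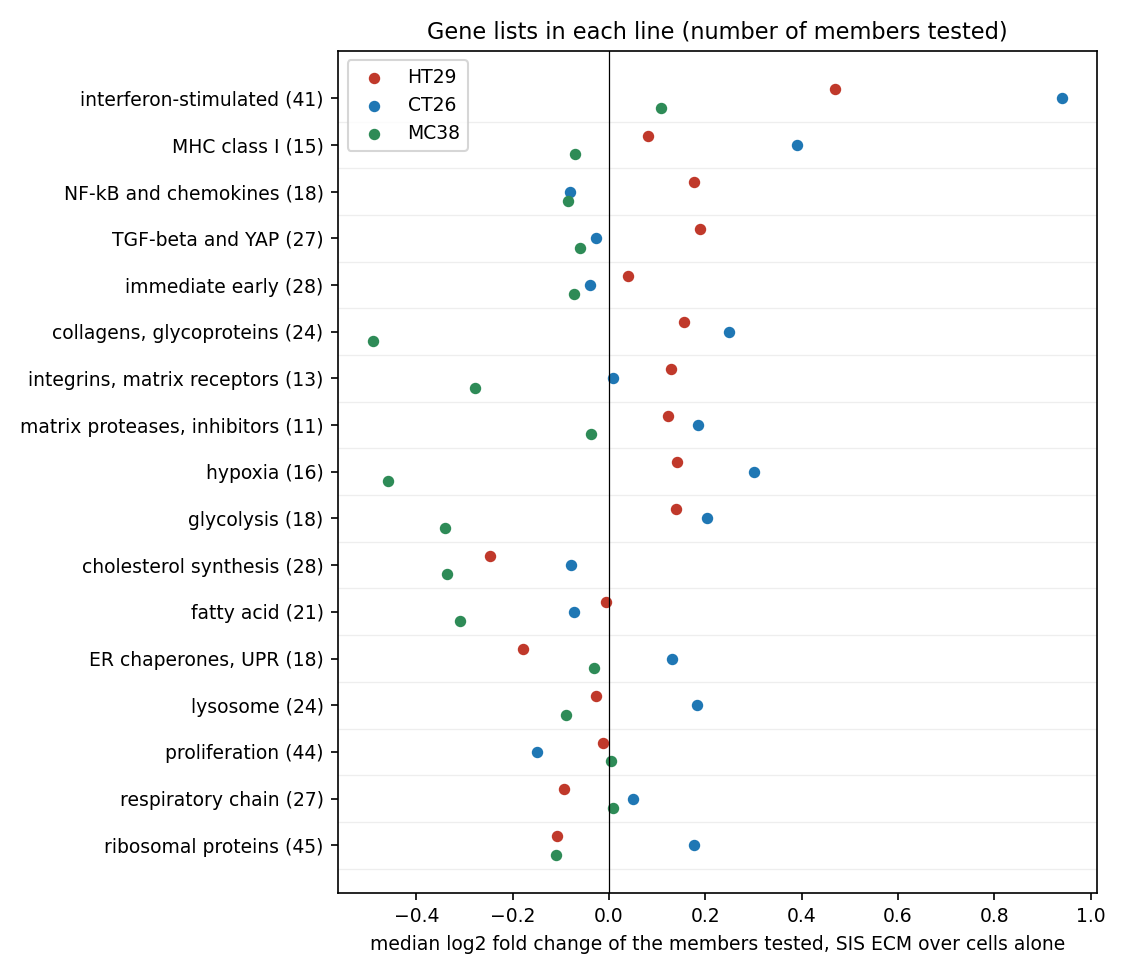
Median log2 fold change with SIS ECM over cells alone of the members tested of 17 gene lists in HT29, CT26 and MC38, with the number tested after each name. Interferon-stimulated genes lie at 0.47, 0.94 and 0.11. Collagen genes lie at 0.16, 0.25 and -0.49, and hypoxia and glycolysis genes are below 0 in MC38 alone.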

How the data were processed

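Expected counts by gene were deposited in 1 mouse and 1 human table. RSEM 1.3.1, STAR 2.7.0f, cutadapt 1.18 and limma are named in the submitters' processing notes, as are hg38 and mm10, all with no role given. Between 2244 and 2621 values per mouse library and 3811 and 4113 per human library were not whole, so the deposited expected counts were rounded. Deposited result tables were not used here, and 34 per-sample columns in them were left out.

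The tables were joined by symbol, which stands in for orthology and can pair genes wrongly in families such as AKR1B, CXCL, IFIT and IFITM. Library sizes were totals of each table, with TMM factors computed within species (0.972 to 1.03 human, 0.865 to 1.10 mouse). A gene was tested if it passed filterByExpr (minimum count 10) within each line. One edgeR 4.0.16 model (R 4.3.3) with 6 groups gave all contrasts by quasi-likelihood F test, adjusted over 8827 genes. SE is the log2 fold change divided by the root of F. The fit was also run on counts simulated around the group means. These held no shift between the number ranges, so that run cannot show how the fit deals with one. CPM were scaled by the factors. No source used here gives the strand setting of the counting.

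The members and the 36 lists were chosen with earlier results of these data known. Named genes were the 12 highest and 12 lowest called differences with a mean of at least 4 CPM in a culture of every line, up to 4 called members per list, 4 per direction for each line standing apart, and the opposite changes. WWTR1, IFITM3 and the further members with a TEAD element were named after their values were seen. One gene that the rule names is not reported here. Mouse coordinates are from GENCODE M21, where all 55450 identifiers matched. No library columns were identical.

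Same-numbered libraries deviated together in CT26 (correlations 0.208 to 0.608 over 6 pairs) and MC38 (0.247 to 0.430 over 4 pairs). They did not in HT29 (-0.185 to 0.304). The deviations were taken from group means over both number ranges, so a shift between the ranges alone would give such correlations. Differently numbered libraries were not compared, so these values cannot show that the numbers pair the mouse libraries. The labels do not state a pairing either. The block leaves out MC38 libraries without a partner. Alternatives were other factors, filters, DESeq2 1.42.0, limma 3.58.1, the block, a term for the number ranges, each range alone, each line alone (for named genes and lists too) and omission of each library.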

Additional observations from a re-analysis of the deposited data

Results flagged for a closer look

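The 27 reported genes with the highest, lowest and opposite differences were examined for a library far from the others of its group, in 162 groups. A gap of this kind arises by chance in about 1 in 20 groups, and 3 were found. ARHGEF5 had 57.7 CPM in HT29 cells-alone library 5, against 67.1 to 71.2 CPM in the other 5. ARHGEF5 had 5.71 CPM in CT26 SIS ECM library 1, against 4.13 to 4.64 CPM in the others. DDX41 had 39.9 CPM in CT26 SIS ECM library 3, against 53.3 to 57.9 CPM in the others, and that library still lay above every CT26 cells-alone library.

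The response differed between HT29 and the mean of the mouse lines, by the test of the difference itself, in 717 genes. In 6 of them HT29 and both mouse lines moved in opposite directions. Among these, the differences were 1.36 for LOXL4, 1.30 for CAV1, 0.90 for SH3BP5, -0.55 for STX3 and -0.38 for IP6K2.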

How the results depend on the processing

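Counts are given in a fixed order: genes higher and lower in HT29; responses that differed between HT29 and CT26, HT29 and MC38, CT26 and MC38; changes within HT29, CT26 and MC38; genes in which HT29, CT26, MC38 or all 3 lines stood apart; and opposite changes in HT29 and both mouse lines. Only counts that moved by more than 1.5 times are listed, except for the omissions. No gene named by the rule changed direction under the settings run (WWTR1 and IFITM3 were named later and were not run), and 266 tests of named genes lost the call while 4702 kept it. Leaving out 1 library gave 302–548 higher, 218–380 lower, 1033–1599, 401–809 and 1243–2321 between lines, 289–495, 1488–2373 and 465–1049 within lines, 118–200, 116–208, 31–65 and 13–29 standing apart, and 5–9 opposite. The extremes 401, 465 and 13 came without MC38 cells-alone library 1, and 31 without HT29 SIS ECM library 3.

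Library totals without factors gave 13 for all 3 lines and 3 opposite. A filter over the joined table (12277 genes) and no filter (15347 genes) gave 702 and 647 changes in HT29, where more genes were tested. DESeq2 gave 12 opposite. limma voom gave 695 higher, 1100 for HT29 and MC38, 1045 for CT26 and MC38, 1495 changes in HT29 and 889 in CT26. Each line fitted alone, chosen after seeing the data, gave 1442 in HT29 and 775 in CT26.

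The replicate block within each line gave 444 lower, 2039 for HT29 and CT26, 772 changes in HT29, 232, 75 and 42 for CT26, MC38 and all 3 lines apart, and 15 opposite. It shared 670 of the 717 calls, and among named genes only AURKB lost its call. A replicate block in the mouse lines alone, chosen after seeing the data, gave 744 higher, 559 lower, 2294 and 1058 between HT29 and each mouse line, 928 changes in HT29 and 3010 in CT26, 289, 294, 103 and 57 standing apart, and 18 opposite.

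A term for the number ranges kept all 717 calls and gave 1010 higher, 752 lower, 2716, 1693 and 3366 between lines, 1281, 3396 and 2012 within lines, 418, 461, 184 and 111 standing apart, and 40 opposite. Mouse libraries 1 to 3 alone gave 815 higher, 714 lower, 3084, 2121 and 4038 between lines, 1307, 3547 and 2171 within lines, 314, 424, 208 and 83 standing apart, and 25 opposite. Mouse libraries 4 to 6 alone gave 862 higher, 643 lower, 1297 for HT29 and MC38, 1095 for CT26 and MC38, 1903, 1232 and 1195 within lines, 360 and 97 for HT29 and MC38 apart, and 19 opposite. The cause of these changes was not tested. Among named genes the errors of the difference were widest for PLAT (0.43) and COL1A1 (0.30), which had about 1 CPM in a culture of some line, and genes that HT29 or a mouse line does not express could not be compared.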
